A study of Mus musculus with 8 samples.

Results

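Nidogens, nephronectin and the Fraser complex are proteins of the basement membrane, the thin sheet of matrix under epithelia. The 10 genes described here are those whose symbol in the deposited count table is Nid1, Nid2, Npnt, Itga8, Fras1, Frem1, Frem2, Grip1, Hspg2 or Agrn. Each symbol matched 1 of the table's 55558 Ensembl gene features. The nidogens bridge the laminin and type IV collagen networks. Nephronectin, made by Npnt, is a ligand of integrin alpha8 beta1 on the metanephric mesenchyme, and this contact is known to sustain Gdnf expression and so the ingrowth of the ureteric bud. Fras1, Frem1 and Frem2 form a complex below embryonic epithelia that the adaptor Grip1 helps to deliver, and its loss in people causes Fraser syndrome, which often includes missing kidneys. Perlecan (Hspg2) and agrin (Agrn) are the large heparan sulphate proteoglycans of the same sheet.

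The study compared a pair of mouse kidney lines derived from metanephric mesenchyme. The labels call mK3 uninduced and mK4 epithelial-differentiated, give both lines the genotype wt and no treatment, and state that both grew in DMEM with serum. There were 3 RNA libraries per line, which the titles call dup, and 1 ATAC-seq library per line, in which a transposase tags accessible DNA. Each line is a single cultured line, and nothing in the labels ties its 3 RNA libraries to separate cultures, so the tests below measure the spread between libraries, which may be technical. In bulk RNA, fewer expressing cells and less RNA per cell cannot be told apart.

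Gene features took 133899125 to 146187601 counts per RNA library. The induced epithelium markers (Pax2, Pax8, Cdh6, Lhx1 and Wnt4) were called higher in mK4 in 5 of 5 cases, with a summed level of 0.756 to 1.25 CPM (counts scaled to a common library size) in mK3 and 1704 to 1787 CPM in mK4. Most of this mK4 sum was Cdh6, at a mean of 1668 CPM. In mK4 Pax8 stood at 39.4 CPM, Pax2 at 29.95, Wnt4 at 12.3 and Lhx1 at 0.569. Of 8 stroma and fibroblast markers, 6 were lower and 1, Foxd1, was higher (log2 fold change 0.92, adjusted p = 0.00848), with sums of 2306 to 2927 CPM in mK3 and 89.7 to 98.1 CPM in mK4. Six2 and Cited1, the defining genes of nephron progenitors, stood at 0.338 and 0.0139 CPM in mK3. Of the nephron progenitor list, 3 of 6 genes were tested, with 1 higher and 2 lower. Sums were 20.8 to 22.2 CPM in mK3 and 162 to 223 CPM in mK4. Most of the mK4 sum was Eya1, which rose from 10.1 to 186.5 CPM. Osr1 fell from 11.2 to 2.25 CPM and Six2 from 0.338 to 0 CPM. Of the mature epithelium and ureteric bud markers, 1 of 5 tested was higher and 1 lower, with sums of 4.58 to 8.76 CPM in mK3 and 13.4 to 15.0 CPM in mK4, and Krt18 was at 0 in all libraries. Endothelial markers summed to 3.60 to 4.64 CPM in mK3 and 7.38 to 8.17 CPM in mK4, with 1 of 4 tested higher and 2 lower. Most of the mK4 sum was Cdh5, which rose from 0 to 7.35 CPM, whereas Kdr and Tek fell from 1.44 and 1.78 CPM to 0. Leukocyte markers summed to 0.526 CPM or less in every library, and the 1 tested was not called. The induced epithelium and stroma lists in particular differed between the lines, and the part of these cell type markers in the results below was not tested.

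Of the 10 genes, 8 were high enough to be tested, and 5 of the 8 were called: Nid2, Fras1 and Agrn were higher in mK4, and Nid1 and Hspg2 were lower. Calls are at a Benjamini-Hochberg adjusted p under 0.05, over all 20405 genes tested, with edgeR's quasi-likelihood test. At this threshold 40.3% of all tested genes were called, 20.8% higher in mK4 and 19.5% lower, so a share of 5 in 8 from a chosen set reads against a high background. The counts called in the related lists below read against the same shares. The median log2 fold change of all tested genes was 0.02. Counts depend on transcript length, for which no value was used, so levels are compared between lines for 1 gene at a time and not between genes.

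**Figure D1:**
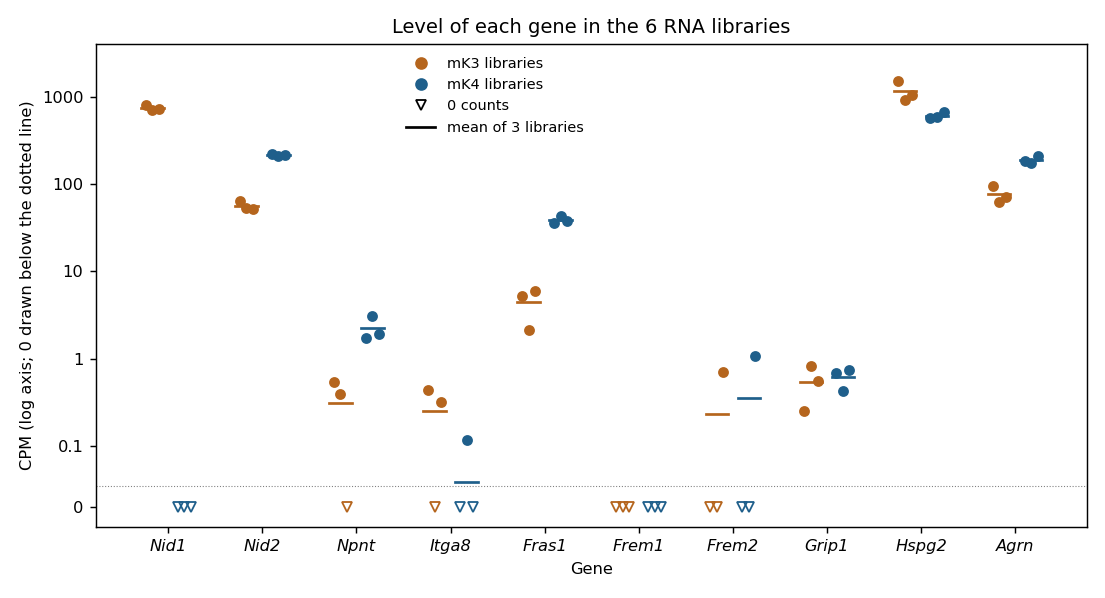
Level of each of the 10 genes in each of the 6 RNA libraries, in CPM on a log axis; filled circles are libraries, open triangles are libraries with 0 counts drawn below the dotted line, and horizontal bars are means of 3 libraries. Nid1 spans 702 to 805 CPM in the mK3 libraries and is at 0 in mK4, whereas Nid2, Fras1 and Agrn lie higher in mK4 with no overlap.

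The nidogen genes moved in opposite directions. Nid1, which encodes the main nidogen of most basement membranes, reached 115661, 92942 and 90351 counts in the mK3 libraries, or 745 ± 53.5 CPM (SD, n = 3). It was listed at 0 counts in all 3 mK4 libraries. Taking 3 counts as the limit that a 0 allows in a library (0.022 CPM at most, for counting error only), Nid1 was at least 33892-fold lower in mK4 (edgeR, adjusted p = 1.05e-05). The bound holds only if a 0 stands for no more than 3 counts, and the table also holds 0 beside much larger counts within a line. Among protein-coding genes with at least 50 counts in 2 mK3 libraries, 134 of 12259 were at 0 in the other, and in mK4 181 of 12391 were. For Nid1 the 3 mK4 libraries showed the same 0.

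Nid2, which encodes the paralog that shares the laminin and collagen binding of nidogen 1, gave 9261, 7077 and 6399 counts across the mK3 libraries against 30304, 31586 and 32587 across those of mK4. Its level rose from 56.5 ± 6.97 to 215 ± 7.40 CPM (n = 3 per line), a log2 fold change of 1.93 (SE 0.10, adjusted p = 5.61e-05). The lowest mK4 library, at 207 CPM, was above the highest mK3 library, at 64.5 CPM. Nid2 overlaps the gene Rtraf at its end, and Rtraf stood at 138.2 ± 16.8 and 119 ± 4.89 CPM (adjusted p = 0.14). The libraries were strand-specific, and whether the counting used strand was not stated in the labels.

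The summed nidogen count was lower in mK4. The summed counts of both genes were 124922, 100019 and 96750 in mK3 and 30304, 31586 and 32587 in mK4, or 801 ± 60.0 and 215 ± 7.40 CPM. Nid2 supplied 7.41%, 7.08% and 6.61% of these counts in the mK3 libraries and 100% in each mK4 library. These shares are of reads and are not corrected for transcript length.

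Within 1 Mb of Nid1, on chromosome 13 (chr13:13437602-13512275, GRCm38.p6), the test called 4 of 20 genes higher and 3 lower, with a median log2 fold change of 0.33. Lyst, the nearest tested protein-coding gene above Nid1, rose from 320 ± 21.3 to 398 ± 14.9 CPM (log2 fold change 0.31, adjusted p = 0.0124). Gpr137b, the nearest below, stood at 24.2 ± 1.45 and 32.9 ± 6.32 CPM (adjusted p = 0.0708). Around Nid2 (chr14:19751257-19811787) 3 of 26 tested genes were higher and 9 lower, with a median of -0.33. The same median for the 572 tested genes of chromosome 14 was -0.43.

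The list of nidogen binding partners held 12 genes and included laminin chains that do not themselves carry the nidogen binding site. All 12 were tested, and 3 were higher in mK4 and 5 lower, with a median log2 fold change of -0.45. The 3 higher genes, Lama1, Lama5 and Lamb1, encode laminin alpha and beta chains and not the chain with that site. Lama5, the laminin chain of mature epithelial basement membranes, rose from 41.0 ± 10.8 to 208 ± 17.8 CPM (log2 fold change 2.34, adjusted p = 0.000294). The laminin gene Lamb1 rose from 126 ± 13.7 to 242 ± 26.8 CPM (adjusted p = 0.00123). Ptprf, which encodes a receptor phosphatase that binds the laminin-nidogen complex, fell from 132 ± 31.5 to 0.0328 ± 0.0569 CPM, with 0, 15 and 0 counts in mK4 (adjusted p = 0.000164). Sparc, a collagen-binding matrix protein gene, fell from 850 ± 134 to 270 ± 14.4 CPM (adjusted p = 0.000184). Fbln2 was singled out after its values were seen: this fibulin gene, whose product binds nidogens, fell from 317 ± 58.2 to 0.197 ± 0.197 CPM (adjusted p = 0.000405). Lamc1, which encodes the laminin chain that carries the nidogen binding site, was added for that role and stood at 620 ± 8.64 and 488 ± 83.0 CPM (adjusted p = 0.0756, range over 13 alternatives 0.0373 to 0.208, called by DESeq2 alone).

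RNA of nephronectin and of the integrin alpha8 chain was low in both lines. Npnt gave 79, 53 and 0 counts across the mK3 libraries against 234, 468 and 288 across those of mK4, that is 0.317 ± 0.284 and 2.24 ± 0.733 CPM. The lowest mK4 library, at 1.71 CPM, was above the highest mK3 library, at 0.550 CPM. The log2 fold change was 2.81 (SE 1.31, 95% interval -0.37 to 5.99) and did not pass the threshold (edgeR, adjusted p = 0.141). Without mK3 replicate 3, the library at 0, it was 2.23 (SE 0.42, adjusted p = 0.0147), and this was the only one of 12 alternatives that called it (range 0.0147 to 0.280). Without mK3 replicate 1 it was 3.48 (adjusted p = 0.181), and with the replicate block 3.62 (adjusted p = 0.183).

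Within 1 Mb of it (chr3:132881745-132950291), 6 of 12 tested genes were called higher and 2 lower, with a median log2 fold change of 1.32. Tbck, Gstcd and Ints12, picked from these after their values were seen, rose from 92.3 to 199, from 76.5 to 183 and from 43.9 to 104 CPM, with log2 fold changes of 1.11, 1.26 and 1.25 and adjusted p of 0.000255 or less. The 854 tested genes of chromosome 3 had a median of 0.69. The part of this regional shift in the Npnt values was not tested.

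**Figure D2:**
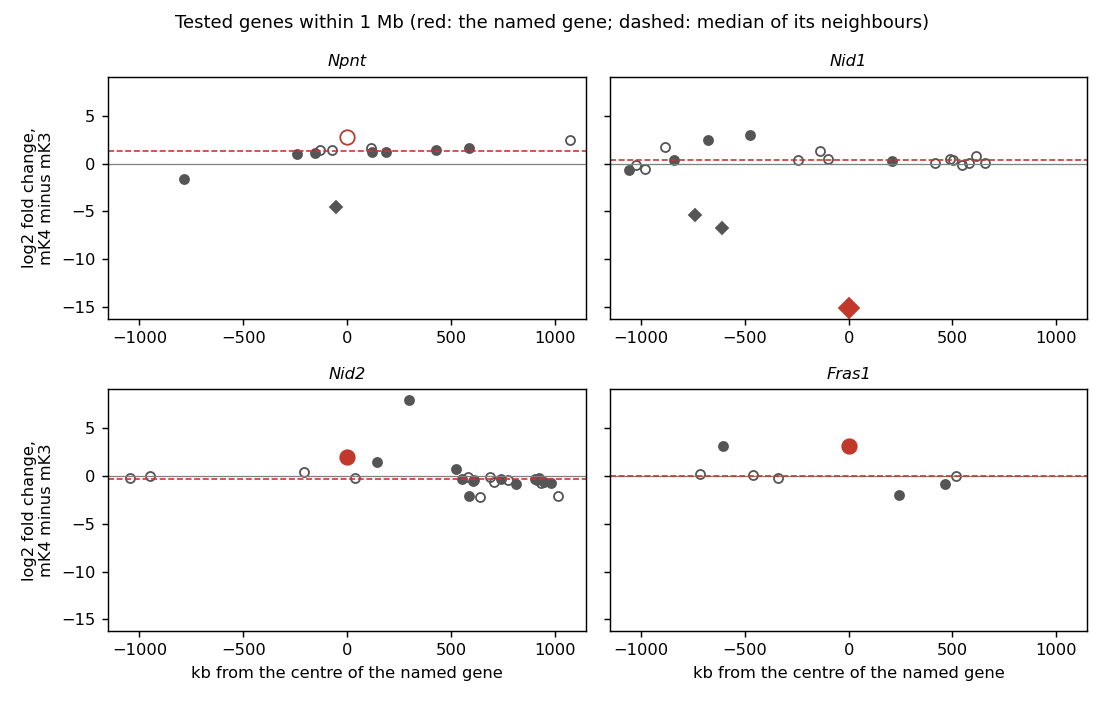
Log2 fold change (mK4 minus mK3) of tested genes within 1 Mb of Npnt, Nid1, Nid2 and Fras1, against distance in kb from the centre of the named gene; filled symbols passed the test, diamonds are bounds for genes at 0 in a line, red marks the named gene and the dashed line is the median of its neighbours. The neighbours of Npnt centre on 1.32, and those of Fras1 on 0.02.

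Itga8, which encodes the integrin alpha8 chain that marks metanephric mesenchyme, gave 64, 0 and 40 counts across the mK3 libraries against 0, 18 and 0 across those of mK4. These are 0.256 ± 0.230 and 0.0394 ± 0.0683 CPM. The mK4 range, 0 to 0.118 CPM, lay within the mK3 range, 0 to 0.445 CPM. Its log2 fold change was -2.66 (SE 2.13, 95% interval -7.84 to 2.51, adjusted p = 0.376), so a difference in either direction was not detectable from these counts. Single libraries decided its size. Without mK3 replicate 1 the log2 fold change was -2.00 (adjusted p = 0.614). Without mK4 replicate 2, the only mK4 library with counts, the fit gave -8.14 (adjusted p = 0.141). That value sets mK3 against 0s alone, so it is not a measured size. Neither value passed the test. Itgb1, its partner chain and named here for that role, fell from 2059 ± 131 to 1523 ± 56.0 CPM (log2 fold change -0.44, SE 0.06, adjusted p = 0.00254).

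Of 12 listed ligands and subunits related to integrin alpha8 beta1, 10 were tested, with 3 higher and 5 lower and a median of -0.60. Egfl6, the closest relative of Npnt, was at 0 counts in all 6 libraries, and vitronectin (Vtn) was too low to be tested. Spp1, which encodes the ligand osteopontin, rose from 152 ± 9.70 to 379 ± 19.7 CPM (log2 fold change 1.32, adjusted p = 6.44e-05). The integrin gene Itgb3 rose from 2.65 ± 1.25 to 14.6 ± 0.721 CPM (adjusted p = 0.0042). Tnc, which encodes the ligand tenascin-C, fell from 1812 ± 105 to 463 ± 8.38 CPM (log2 fold change -1.97, adjusted p = 1.17e-05). Itga5, the fibronectin receptor chain, fell from 170 ± 10.0 to 55.8 ± 4.57 CPM (adjusted p = 6.26e-05).

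Genes of the GDNF axis, which lies downstream of nephronectin in the embryonic kidney, did not follow one direction. Of 7 listed and tested, 2 were higher and 1 lower, with a median of -0.23. The lower count was 0 without mK3 replicate 3 and with the replicate block, 2 with relative log expression factors or DESeq2, and 3 without mK4 replicate 1. Etv4 and Etv5, transcription factor genes induced by this signal in the ureteric bud, rose from 6.67 ± 0.501 to 25.8 ± 3.78 CPM and from 41.7 ± 3.18 to 55.2 ± 1.87 CPM (adjusted p = 0.000204 and 0.0112). Gdnf itself stood at 13.95 ± 0.796 and 7.68 ± 3.02 CPM (adjusted p = 0.0543, called in 4 of 13 alternatives, range 0.00775 to 0.146). Ret, the receptor gene, went from 14, 180 and 55 counts to 0 in every mK4 library (adjusted p = 0.0188). The Ret call was lost without mK3 replicate 3 (adjusted p = 0.0518) and with the replicate number as a block (0.0539), within a range of 7.73e-06 to 0.0539 over 12 alternatives.

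Of the Fraser complex genes, Fras1 and Grip1 were tested, and Fras1 was called higher in mK4. Fras1, which encodes a large transmembrane protein of the basal cell surface, gave 746, 286 and 736 counts across the mK3 libraries against 4896, 6511 and 5726 across those of mK4. Its level rose from 4.43 ± 2.00 to 38.9 ± 3.52 CPM, a log2 fold change of 3.14 (SE 0.39, 95% interval 2.19 to 4.08, adjusted p = 0.00133). The mK3 libraries differed among themselves by 2.74 times, with replicate 2 lowest at 2.16 CPM, but none came near the lowest mK4 library at 35.9 CPM. Without mK3 replicate 2 the log2 fold change was 2.81.

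Of 7 tested genes within 1 Mb of Fras1 (chr5:96373777-96784733), 1 was higher and 2 were lower, with a median of 0.02. Anxa3, the nearest tested gene above Fras1, fell from 699 ± 64.6 to 179 ± 5.11 CPM (log2 fold change -1.97, adjusted p = 2.7e-05).

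The partners of Fras1 were absent or nearly so from the counts. Frem1 had 0 counts in all 6 libraries, which allows up to 3 counts per library, or 0.0242 CPM. Frem2 gave 0, 0 and 87 counts across the mK3 libraries against 0, 0 and 162 across those of mK4, too few libraries with counts for the filter. In both lines replicate 3 alone held Frem2 counts, at 0.701 and 1.08 CPM, so the level rests on 1 library per line.

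Grip1 was low in both lines. It gave 36, 109 and 70 counts across the mK3 libraries against 93, 65 and 113 across those of mK4, or 0.546 ± 0.287 and 0.620 ± 0.171 CPM, and the ranges overlapped. Its log2 fold change was 0.18 (SE 0.54, 95% interval -1.13 to 1.5, adjusted p = 0.82), and -0.16 without mK3 replicate 1. The interval leaves room for a change of more than 2-fold in either direction. Grip1 overlaps a more abundant gene, Helb, whose mean level was 39.65 ± 3.51 (mK3) and 36.2 ± 4.48 (mK4) CPM. As for Nid2, whether the counting used strand was not stated in the labels. Whether Helb reads entered the low Grip1 counts was not tested. Around Grip1, 9 of 16 tested genes were lower and 0 higher, with a median log2 fold change of -0.62. The 834 tested genes of chromosome 10 had a median of -0.35.

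Of 7 listed relatives and partners of the Fraser complex, 4 were tested, with 2 higher, 1 lower and a median of -0.22. Col7a1, the anchoring fibril collagen gene, rose from 1.30 ± 0.262 to 6.16 ± 0.851 CPM (log2 fold change 2.24, adjusted p = 0.000656). Vwa2, whose product AMACO binds Fras1 and Frem2, gave 0, 9 and 0 counts across the mK3 libraries against 125, 240 and 94 across those of mK4 (adjusted p = 0.0302). The Vwa2 call was lost without mK3 replicate 1 (adjusted p = 0.0646) or 3 (0.0666), without mK4 replicate 1 (0.0728), 2 (0.0933) or 3 (0.0592), and without a filter (0.0593), and its range over 12 alternatives was 0.000576 to 0.0933. Cspg4, a transmembrane proteoglycan gene that shares the CSPG repeats of Fras1 and Frem proteins, fell from 13.8 ± 3.76 to 0.0263 ± 0.0455 CPM, with 0, 12 and 0 counts in mK4 (adjusted p = 0.00145). Frem3, Grip2 and Hmcn1 were too low to be tested.

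The basement membrane proteoglycan genes Hspg2 and Agrn changed in opposite directions. Hspg2 gave 216077, 120075 and 128615 counts across the mK3 libraries against 77472, 87880 and 99393 across those of mK4. Its level fell from 1149 ± 314 to 602 ± 52.0 CPM, a log2 fold change of -0.93 (SE 0.19, 95% interval -1.40 to -0.46, adjusted p = 0.0105). The highest mK4 library, at 662 CPM, was below the lowest mK3 library, at 907 CPM. The mK3 spread came from replicate 1 at 1504 CPM, and without it the log2 fold change was -0.69 (adjusted p = 0.0069).

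Agrn gave 13770, 8185 and 8838 counts across the mK3 libraries against 24932, 26575 and 31128 across those of mK4. Its level rose from 76.3 ± 17.6 to 188 ± 17.1 CPM, a log2 fold change of 1.30 (SE 0.17, 95% interval 0.88 to 1.73, adjusted p = 0.00186). Within mK3 replicate 1 was again the highest, at 95.8 CPM, but the lowest mK4 library stood at 175 CPM.

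The ratio of Agrn to Hspg2 counts within a library varied little within a line. Its log2 value was -3.97, -3.87 and -3.86 in the mK3 libraries and -1.64, -1.73 and -1.67 in the mK4 libraries. The means were -3.90 ± 0.06 and -1.68 ± 0.05, a difference of 2.22. A two-sided exact permutation test gave p = 0.1, the smallest that 3 against 3 libraries allow, and 0.25 after adjustment over the 5 ratios computed. The ranges did not overlap.

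Other heparan sulphate proteoglycan genes were called in both directions, as were all tested genes (20.8% higher and 19.5% lower). Of 14 listed with the agrin receptors, 12 were tested, with 4 higher and 3 lower and a median of -0.04, against 0.02 over all tested genes. Col18a1, which encodes a basement membrane collagen with heparan sulphate chains, rose from 59.7 ± 18.8 to 445 ± 13.9 CPM (log2 fold change 2.90, adjusted p = 0.000285). The glypican gene Gpc1 rose from 79.1 ± 7.24 to 212 ± 15.3 CPM (adjusted p = 0.000117). Gpc4 fell from 745 ± 64.2 to 51.2 ± 5.41 CPM (log2 fold change -3.86, adjusted p = 1.05e-05), and the syndecan gene Sdc2 fell from 511 ± 0.922 to 150 ± 5.62 CPM (adjusted p = 1.19e-05).

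Among 18 genes that build or edit heparan sulphate chains, 6 were higher and 5 lower, with a median of 0.14. Over all tested genes the shares were 20.8% and 19.5%. Hs2st1, a uronic acid 2-O-sulphotransferase gene, rose from 304 ± 10.7 to 697 ± 22.5 CPM (adjusted p = 3.66e-05). Sulf2, which encodes an enzyme that removes 6-O-sulphate outside the cell, rose from 1.46 ± 0.438 to 16.4 ± 2.25 CPM (adjusted p = 0.00019). Hs6st2, which adds 6-O-sulphate, fell from 542 ± 20.8 to 97.1 ± 8.18 CPM (adjusted p = 1.48e-05), and the chain polymerase gene Ext1 fell from 1394 ± 49.0 to 452 ± 21.3 CPM (adjusted p = 1.78e-05).

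Of 11 other basement membrane genes, 10 were tested, with 1 higher and 3 lower and a median of -0.35. The lower count was 1 without mK3 replicate 1, mK3 replicate 3 or mK4 replicate 2, without TMM scaling and under either other filter. With a library left out, the lower count ranged from 1 to 4. The higher count was 2 without mK3 replicate 2, mK3 replicate 3 or mK4 replicate 3 and with DESeq2. Tinagl1, a matrix glycoprotein gene, rose from 2.29 ± 0.462 to 30.2 ± 3.15 CPM (log2 fold change 3.72, adjusted p = 5.23e-05). Smoc2, a calcium-binding matrix protein gene, went from 225, 288 and 698 counts to 0 in every mK4 library (adjusted p = 0.00267). Pxdn, which encodes the peroxidase that cross-links type IV collagen, moved from 105 ± 4.44 to 88.7 ± 5.74 CPM with an adjusted p of 0.0468. Its call held in 3 of 13 alternatives, with a range of 0.0157 to 0.310, the highest without TMM scaling, and was lost without any 1 library except mK4 replicate 3 (0.0715 to 0.150).

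**Figure D3:**
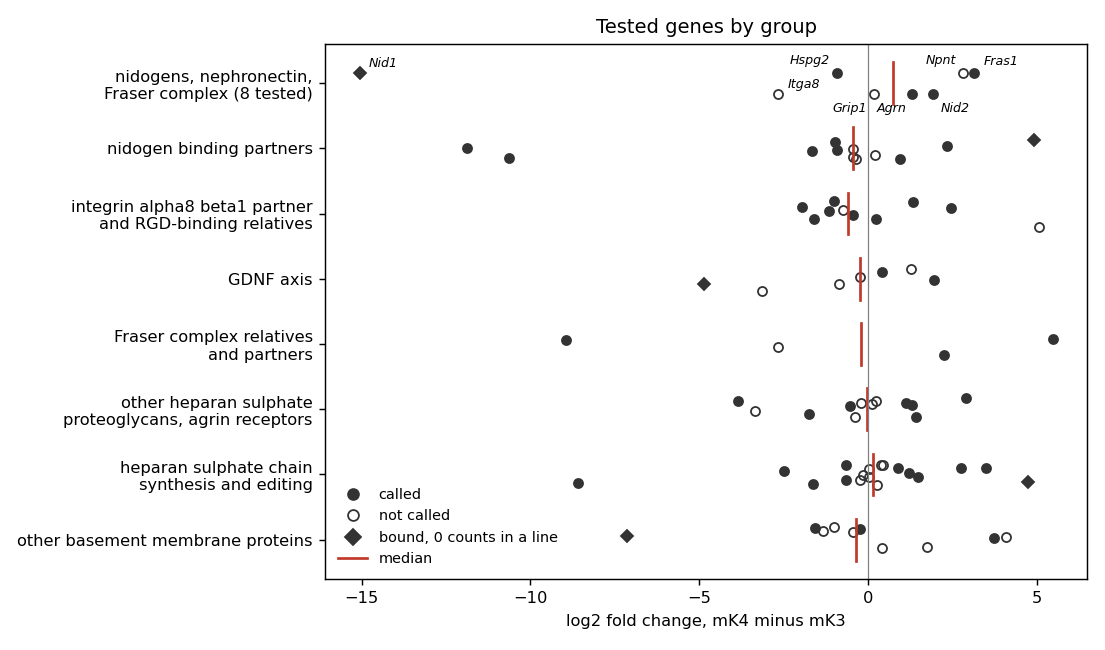
Log2 fold change (mK4 minus mK3) of the 8 tested genes and of the tested genes in 7 related lists; filled symbols passed the test, open symbols did not, diamonds are bounds for genes at 0 in a line, and red bars are medians. The lists spread to both sides of 0, with medians from -0.60 to 0.14.

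The ATAC peak lists, 1 library per line and so with no replicate check, held 22477 peaks for mK3 and 34710 for mK4. In or within 10 kb of the 10 genes lay 17 mK3 and 23 mK4 peaks, of which 12 in each list overlapped a peak of the other by at least 1 bp. An annotated start was at hand for 8 of the 10 genes. A peak within 1 kb of a start was listed for 3 of the 8 in mK3 (Itga8, Hspg2 and Agrn) and for 1 in mK4 (Agrn). Of the 6 that were also tested for expression, 3 had such a peak in mK3 and 1 in mK4. Among all tested genes with a start in the table these shares were 63.6% in mK3 and 69.8% in mK4. Fold enrichments below are the authors' values and describe each peak within its own list.

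**Figure D4:**
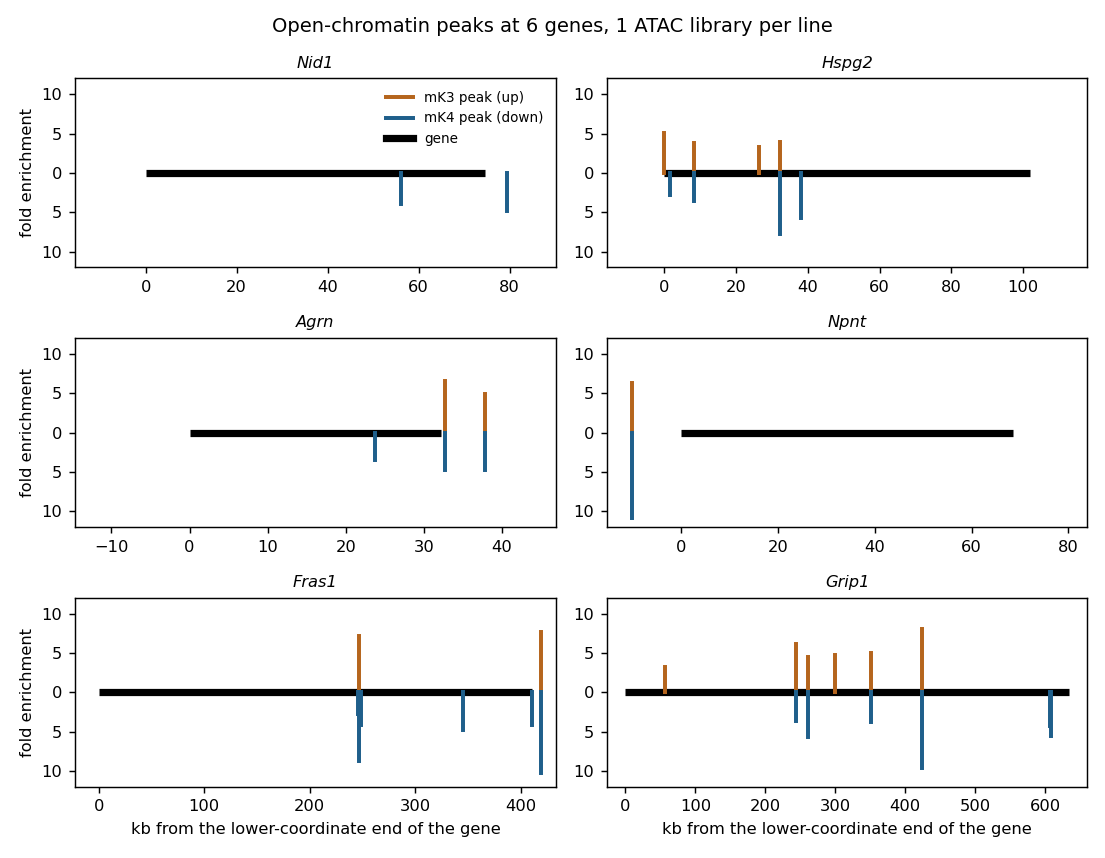
Peaks at Nid1, Hspg2, Agrn, Npnt, Fras1 and Grip1, placed by summit in kb from the lower-coordinate end of each gene (black bar), with the authors' fold enrichment as height, mK3 upward and mK4 downward. Nid1 has 0 mK3 peaks and 2 mK4 peaks, and the peak at the left end of Hspg2 is in the mK3 list only.

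The stretches just before the start of Nid1, Hspg2, Agrn and Itga8 are shown because these genes differ in whether a peak is listed within 1 kb of the start. They come from RefSeq (GRCm38.p6), 5′ to 3′ on the gene's strand, without bases inside the annotated gene. Capitals mark GGGCGG (the GC box), CCAAT (the CCAAT box) and TATAAA (the TATA box) on either strand, where matches may overlap.
Nid1 (chr13:13437352-13437601, plus strand): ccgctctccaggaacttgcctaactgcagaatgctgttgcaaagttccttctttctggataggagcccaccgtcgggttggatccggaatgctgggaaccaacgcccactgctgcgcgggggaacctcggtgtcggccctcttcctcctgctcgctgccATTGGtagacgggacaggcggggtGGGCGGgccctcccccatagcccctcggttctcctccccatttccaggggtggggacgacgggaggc
Hspg2 (chr4:137468553-137468750, plus strand): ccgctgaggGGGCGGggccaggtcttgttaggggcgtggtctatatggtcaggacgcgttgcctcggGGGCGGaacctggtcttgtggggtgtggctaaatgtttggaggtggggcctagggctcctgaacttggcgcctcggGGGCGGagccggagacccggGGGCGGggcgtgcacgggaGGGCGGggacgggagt
Agrn (chr4:156197534-156197738, minus strand): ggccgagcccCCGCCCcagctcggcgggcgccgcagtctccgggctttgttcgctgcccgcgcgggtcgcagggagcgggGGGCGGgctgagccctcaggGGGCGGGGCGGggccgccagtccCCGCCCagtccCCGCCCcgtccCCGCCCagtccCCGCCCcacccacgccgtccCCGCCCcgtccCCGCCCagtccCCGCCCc
Itga8 (chr2:12301986-12302194, minus strand): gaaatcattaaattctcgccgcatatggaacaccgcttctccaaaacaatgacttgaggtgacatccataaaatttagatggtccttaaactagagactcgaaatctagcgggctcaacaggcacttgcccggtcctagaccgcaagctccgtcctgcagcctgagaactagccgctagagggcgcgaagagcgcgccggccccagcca

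In the 250 bases before the start, GGGCGG occurred 12 times at the Agrn start shown, 5 times at Hspg2, 1 time at Nid1 and 0 times at Itga8. At least 1 match lay in 32.7% of all 32851 such windows. The windows include the 52, 45 and 41 bases next to the start that the printed stretches of Hspg2, Agrn and Itga8 leave out. The Agrn match 34 bases before the start lies there and is not printed. The base composition differs too: G and C made up 83.6% of the Agrn window, 70.0% at Hspg2, 64.4% at Nid1 and 56.4% at Itga8, against a median of 52.4%. CCAAT occurred 1 time at Nid1 and in none of the other 3 windows (33.9% of all windows), and TATAAA in none of the 4 (12.4%). Of the other motifs searched, CANNTG (the E-box, 66.2% of windows) occurred 2 times at Itga8 and GGAATG (a TEAD motif, 12.6%) 1 time at Nid1. TGANTCA (6.75%), AGATAA (9.99%) and GATTA (19.8%) occurred in none of the 4.

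At Nid1 no mK3 peak was listed in the gene or within 10 kb, although the gene was abundant there. Of 1607 tested genes with a mean of at least 100 CPM in mK3, 84.4% had a start-site peak, so Nid1 belongs to the smaller group without one. The mK4 list held a peak inside Nid1 (chr13:13493543-13493764, fold enrichment 3.98) and another above it (chr13:13516691-13517107, 4.90). Neither peak lies near the start of Nid1.

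Hspg2 had a peak over its start in the mK3 list only (chr4:137468522-137468811, fold enrichment 5.01), which covers the whole printed stretch. Of 522 tested genes with a start-site peak in the mK3 list only, 252 were lower in mK4 and 54 higher. In mK4 Hspg2 still stood at 602 CPM without such a peak. Of 1482 tested genes with a mean of at least 100 CPM in mK4, 90.2% had one. The part of the peak in the Hspg2 level was not tested. The mK4 list held 4 peaks at Hspg2, all inside the gene. The nearest to the start (chr4:137470082-137470641, fold enrichment 2.84) had its summit 1431 bp past it, outside the 1 kb window. The highest was at chr4:137500860-137501373 with a fold enrichment of 7.74. The mK3 peak that overlaps it had a fold enrichment of 3.89.

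Agrn had a start-site peak in both lists, at chr4:156197735-156198254 in mK3 (fold enrichment 6.54) and chr4:156197714-156198205 in mK4 (4.78). A further pair of overlapping peaks lay upstream, with fold enrichments of 4.88 and 4.70. At Itga8 the only peak in either list was an mK3 peak over the start (chr2:12301871-12302154, fold enrichment 4.25), in the line with 64, 0 and 40 counts.

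Fras1 carried 2 mK3 and 6 mK4 peaks. Both mK3 peaks had an mK4 partner: an intragenic site (chr5:96620262-96620925 in mK3, fold enrichment 7.22, and 8.67 in mK4) and a site above the gene (7.69 and 10.3). The other 4 mK4 peaks had fold enrichments of 2.72 to 4.72. No peak lay at the lower-coordinate end of Fras1 in either list. Nid2, whose start is not in the table used here either, had a peak over its lower-coordinate end in both lists (fold enrichment 5.19 and 4.33).

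Npnt had no peak in the gene in either list, and a strong shared site about 10 kb past its lower-coordinate end, which is its 3′ end. That site was chr3:132871190-132872020 in mK4, with a fold enrichment of 10.8 and a -log10 q of 185, above 96.9% of the mK4 list by fold. Its mK3 counterpart had a fold enrichment of 6.34, above 84.4% of the mK3 list. Grip1 had 6 peaks in each list, 4 of them with a partner, none within 1 kb of a start. Frem1 and Frem2 had no peak in either list.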

How the data were processed

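The deposited table holds raw read counts per feature, made by the authors from strand-specific, rRNA-depleted libraries, per the labels' protocols. The submitters' processing notes name MACS3, Bowtie2, deepTools, STAR 2.7.10a, SAMtools, HTSeq 2.0.2, bedtools and the build mm10, with no role given. The deposited peak lists give, in the order of the narrowPeak format, a score, a fold enrichment (a ratio) and the -log10 p and q of each peak, as the authors' caller wrote them. Caller settings: not given in the sources used here.

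Ensembl gene features were fitted with edgeR 4.0.16 in R 4.3.3 (filterByExpr, TMM scaling, robust quasi-likelihood test). CPM use TMM-scaled library sizes. P-values were adjusted over all genes tested. DESeq2 1.42.0, other scalings and filters, each library left out and a replicate block were alternatives. The steps were tested on simulated data. Coordinates and promoter sequences came from RefSeq tables for GRCm38.p6, which is mm10. Only peaks on the autosomes, X and Y entered. Neighbours are the 16627 tested genes (81.5%) with a RefSeq coordinate. List genes named are up to 2 per direction with the smallest adjusted p and no overlap between lines. The members and lists were chosen with earlier results of these data known. Python 3.11.15, SciPy 1.17.1 and matplotlib 3.10.9 were used.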

Additional observations from a re-analysis of the deposited data

How the results depend on the processing

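The 8 tested genes gave 100 fold changes under the 13 alternatives: 98 kept the direction and the side of the threshold, Npnt passed without mK3 replicate 3 (log2 fold change 2.23), and Grip1, never called, ranged from -0.16 (without mK3 replicate 1) to 0.61 with a library left out. Frem2 could be tested in 5 alternatives (adjusted p = 0.797 to 0.993) and Frem1 in none. Genes called lower among the 10 went from 2 to 1 when each gene needed at least 1 CPM in all 6 libraries, because Nid1 at 0 in mK4 is then not tested. With a library left out, 3446 to 3896 of all genes were called higher and 3388 to 3607 lower. Without TMM scaling the median log2 fold change of all genes moved by 0.106, to 0.131. Same-numbered libraries did not deviate together (r = -0.019, 0.021 and 0.007), so no pairing by number was seen. So few libraries per line cannot exclude one. With the replicate block 3281 genes were called higher and 3129 lower, against 4237 and 3988 without it, and the same 5 of the 10 genes were called. The log2 ratio of Frem2 to Frem1 counts (0.30, mK4 minus mK3) rests on 0s, with 0.5 added to each count, and was -0.94 without mK3 replicate 1 or 2 and -2.48 without mK4 replicate 3, with 2.78 the highest value when a library was left out. Among peaks with a -log10 q of at least 10, 7 of 12 in each list had a partner, against 12 of 17 and 12 of 23. Depth limits Npnt, Itga8, Frem2 and Grip1, with at most 468 counts in a library.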
